A study of Mus musculus with 4 samples.

Results

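ABC transporters are membrane proteins that use ATP to move lipids, bile salts, drugs and peptides across membranes, and their genes form 7 subfamilies named Abca to Abcg. Members were taken by name, as every probe on the array, other than a control, whose gene symbol begins with Abca to Abcg and a number. This gave 83 spots of 74 probes for 50 genes, among 43020 spots of 39429 probes and 27431 gene names on the array. A probe entered the test where, for 1 of the genotypes, the scanner software had marked it well above background in 3 or 4 mice. The tested members were 49 probes of 40 genes, among 20818 tested probes in all.

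The samples were total liver RNA of 8 untreated male mice, aged 2 months and of mixed strain. In 4 of them NIPP1, a nuclear regulator of protein phosphatase 1 that is encoded by Ppp1r8, had been deleted conditionally in the liver. The other 4 mice were controls. For the Cre line, the deleted exons and the full genotype of the controls, nothing was given in the sources used here. Each of 4 arrays carried 1 knockout and 1 control mouse in different dyes, the knockout in Cy3 on replicates 1 and 2 and in Cy5 on replicates 3 and 4. Values are log2 knockout over control on an array unless a signal is named, and SD is over the 4 arrays. The main model has a dye term. Its P-values therefore measure the spread between arrays of the same dye orientation and leave out differences between the orientations.

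In the hepatocyte, the canalicular membrane faces the bile and the basolateral membrane faces the blood. Canalicular ABC transporters export bile salts, phospholipid, sterols, conjugated bilirubin and drugs into bile. Their basolateral relatives return conjugates to the blood or load cholesterol onto lipoproteins. Other members work in mitochondria, peroxisomes and lysosomes, and the Abce and Abcf proteins have no membrane domain and act on ribosomes. Sites were assigned from general knowledge of these proteins.

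The targeted gene was lower in the knockout channel on every array. The first Ppp1r8 probe, at chromosome 4, 132383193 to 132383252 on mm9, gave -0.60, -0.73, -0.74 and -0.63 on replicates 1 to 4, a mean of -0.68 ± 0.071 (SD, n = 4). The second Ppp1r8 probe, at 132383814 to 132383873, gave -0.66, -0.59, -0.59 and -0.75, a mean of -0.65 ± 0.077 (SD, n = 4). The adjusted p of both was 0.0519 in limma. With the processed signals of the scanner software, to which no constant is added, the means were -1.33 and -1.22. Whether either probe lies in the deleted part is not given. Per array and dye, 52.7% to 56.3% of spots gave a signal well above background, and no spot was saturated.

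No ABC probe passed the threshold of 0.05 after adjustment over all tested probes in limma, against 39 probes, or 0.187%, of the array. Without adjustment, 14 of the 49 ABC probes were under 0.05, or 28.6%, against 23.2% of all tested probes. Under an adjusted p of 0.1, a weaker limit used below only to order the description, lay 9 ABC probes of 7 genes, against 6.72% of all tested probes. Among those described below, the values were higher in the knockout for Abcb1a, both probes of Abcb4 and Abcc3, and lower for both probes of Abca2, Abcb10 and Abcc10. The higher probes were 5 of 49, against 4.05% of the array, and the lower ones 4 of 49, against 2.68%. With an array left out the counts were smaller for ABC probes and for all tested probes. Without replicate 1 there was 1 ABC probe under 0.1, against 1.06% of all tested probes. Without replicate 2 there were 0, against 0.144%, and without replicate 3 or 4 there were 0 among ABC probes and 0 among all. The fitted ratios moved less, from 0.59 to 0.67 for Abcb1a and from -0.52 to -0.47 for the first Abca2 probe. These are not plain means of 3 arrays, because the model gives each dye orientation equal weight. In the separate channel model of limma, which reads the 8 mice singly, 13 ABC probes passed 0.05, against 17.6% of all tested probes, and 15 passed 0.1, against 26.4%. Under 0.1 the ratio model counted 7 ABC probes on the processed signals, against 4.89% of all tested probes. It counted 2 without the dye term, against 1.72%, and 5 with the background fitted on all spots, against 3.77%.

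ABC probes had no common direction. Of the 49 tested, 24 had a mean above 0, against 50% of all tested probes, and the median log2 ratio was -0.0047 against -7.2e-05. In size the median ABC ratio was 0.148 against 0.0928, and the median SD between arrays was 0.249 against 0.168. All 4 arrays had the same sign for 12 ABC probes, or 24.5%, which is also the share of all tested probes. These were 6 above 0, against 13.4% of all tested probes, and 6 below 0, against 11.1%. The ABC means ran from -0.55 for Abcg4 to 0.65 for the second Abcb4 probe.

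The canalicular members with the highest ratios were Abcb4 and Abcb1a. Abcb4, the floppase that brings phosphatidylcholine to the bile side of the membrane, had higher values in the knockout on all 4 arrays with 2 separate probes. Abcb1a, a P-glycoprotein that exports drugs and other hydrophobic compounds, was also higher on every array. Their neighbour Abcb1b, the other mouse P-glycoprotein, lay near 0. The 3 genes adjoin on chromosome 5, with no other protein-coding gene between them in the RefSeq gene table. The probes assigned to them are shown by their last 30 bases, positions 31 to 60, 5′ to 3′.
Abcb1a: ctaccacctaagtaagcagcaaggtgtggt
Abcb1b: tgactatctgaggtgctaagtatttttaat
Abcb4 first probe: caatggtcaacatccaggccggcacacaga
Abcb4 second probe: ttgccaggtaattgtttctttgcctcttaa
On mm9 these 60-base probes lie on chromosome 5 at 8748075 to 8748134, 8865925 to 8865984, 8959108 to 8959167 and 8899682 to 8899741. Abcb1a and Abcb1b are close paralogs, and whether a probe also binds the RNA of the other gene was not tested.

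Abcb1a gave 0.15, 0.32, 1.10 and 0.97 on replicates 1 to 4, a mean of 0.63 ± 0.47 (SD, n = 4), or 1.55-fold, with an adjusted p of 0.0519 in limma. Its processed signal was 90.7, 71.5, 74.0 and 35.2 in the control mice and 114, 115, 251 and 141 in the knockout mice. The groups did not overlap, and the replicates with the knockout in Cy5 had the larger ratios, a mean of 1.03 against 0.23 with the knockout in Cy3. On the processed signals the mean log2 ratio was 1.19, with an adjusted p of 0.0608. The dye term removes the difference between orientations from the error, and without that term the adjusted p was 0.196.

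The first Abcb4 probe gave 0.48, 0.55, 0.22 and 0.23, a mean of 0.37 ± 0.17 (SD, n = 4), or 1.29-fold, with an adjusted p of 0.0583 in limma. Its processed signals overlapped, from 16556 to 23655 in controls and from 23330 to 32270 in knockouts. The second probe, which the array design assigns to an Ensembl transcript, gave 0.49, 0.91, 0.67 and 0.52, a mean of 0.65 ± 0.19 (SD, n = 4), or 1.57-fold, with an adjusted p of 0.0611 in limma. Its signals did not overlap, from 271 to 450 in controls and from 475 to 666 in knockouts. So the probes of Abcb4 had 1 direction on every array. Abcb1b gave -0.14, 0.14, -0.24 and 0.17, a mean of -0.02 ± 0.20 (SD, n = 4). Whether Abcb1a and Abcb1b differ in their response was not tested.

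Because neighbours on chromosome 5 had different ratios, the 250 bases before the start of each are shown, with Abcb11 for contrast, as RefSeq gives them on GRCm38.p6. Capitals mark each match, on either strand, to the core that nuclear receptors bind (AGGTCA), to a CAAT box (CCAAT), to a GC box (GGGCGG), to a TATA box (TATAAA) or to an antioxidant response core (TGACNNNGC).
Abcb1a: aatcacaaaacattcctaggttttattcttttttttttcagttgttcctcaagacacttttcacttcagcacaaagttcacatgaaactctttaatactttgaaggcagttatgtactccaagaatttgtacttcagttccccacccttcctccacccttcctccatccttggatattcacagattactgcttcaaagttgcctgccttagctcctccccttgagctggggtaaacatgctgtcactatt
Abcb1b: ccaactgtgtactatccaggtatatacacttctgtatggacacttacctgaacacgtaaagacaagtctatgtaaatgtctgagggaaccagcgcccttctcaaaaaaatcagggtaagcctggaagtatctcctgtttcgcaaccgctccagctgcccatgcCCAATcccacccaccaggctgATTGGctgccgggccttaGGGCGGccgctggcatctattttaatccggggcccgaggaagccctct
Abcb4: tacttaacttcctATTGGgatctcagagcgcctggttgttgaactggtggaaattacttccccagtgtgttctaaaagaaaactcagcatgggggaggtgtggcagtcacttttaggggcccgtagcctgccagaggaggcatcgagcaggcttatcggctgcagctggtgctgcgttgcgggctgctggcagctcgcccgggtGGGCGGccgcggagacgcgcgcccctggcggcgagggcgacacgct
Abcb11: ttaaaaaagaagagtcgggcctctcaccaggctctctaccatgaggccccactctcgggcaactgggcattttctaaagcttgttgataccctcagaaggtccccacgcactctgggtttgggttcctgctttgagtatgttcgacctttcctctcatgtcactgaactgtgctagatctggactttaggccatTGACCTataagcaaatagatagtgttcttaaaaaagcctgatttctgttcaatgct
The windows are chr5:8566841-8567090, chr5:8797897-8798146 and chr5:8893471-8893720 on the plus strand and chr2:69342617-69342866 on the minus strand. The Abcb1a window held none of these letters. Abcb1b held CAAT boxes in both orientations and 1 GC box. Abcb4 held 1 CAAT box on the reverse strand and 1 GC box. Abcb11 held the nuclear receptor core on the reverse strand, 51 to 56 bases before the start. Over all 32851 promoters of the table, 14.0% held the nuclear receptor core, 33.8% a CAAT box, 32.7% a GC box, 12.4% a TATA box and 10.2% the antioxidant response core in the same window. Of the 50 member genes, 38 had an entry in the promoter table. A match describes letters and no binding.

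The other canalicular members did not reach an adjusted p of 0.1. Abcb11, the bile salt export pump, was below 0 on every array, at -0.57, -0.16, -0.50 and -0.06, a mean of -0.32 ± 0.25 (SD, n = 4), with an adjusted p of 0.198 in limma. Its signals were 22814 to 31293 in controls and 19106 to 23627 in knockouts, so the groups overlapped. Abcc2, which exports bilirubin and other conjugates, gave 0.18, 0.45, -0.05 and 0.48, a mean of 0.27 ± 0.25 (SD, n = 4), with an adjusted p of 0.248 in limma. Abcb11 and Abcc2 thus had means of opposite sign, and neither passed the test.

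Abcg5 and Abcg8 form the heterodimer that sends cholesterol and plant sterols into bile. Abcg5 gave -0.18, 0.00, 0.03 and 0.16, a mean of 0.00 ± 0.14 (SD, n = 4). Abcg8 gave -0.42, -0.21, -0.22 and 0.07, a mean of -0.20 ± 0.20 (SD, n = 4), with an adjusted p of 0.223 in limma. Abcg2, a drug and urate exporter, had the widest spread of any tested ABC probe, with 0.93, 0.18, -0.20 and -0.73 and a mean of 0.04 ± 0.70 (SD, n = 4). Its signals overlapped, from 8724 to 13953 in controls and from 8705 to 16155 in knockouts. Of the 9 canalicular probes, 6 had a mean above 0, and the median was 0.04.

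**Figure D1:**
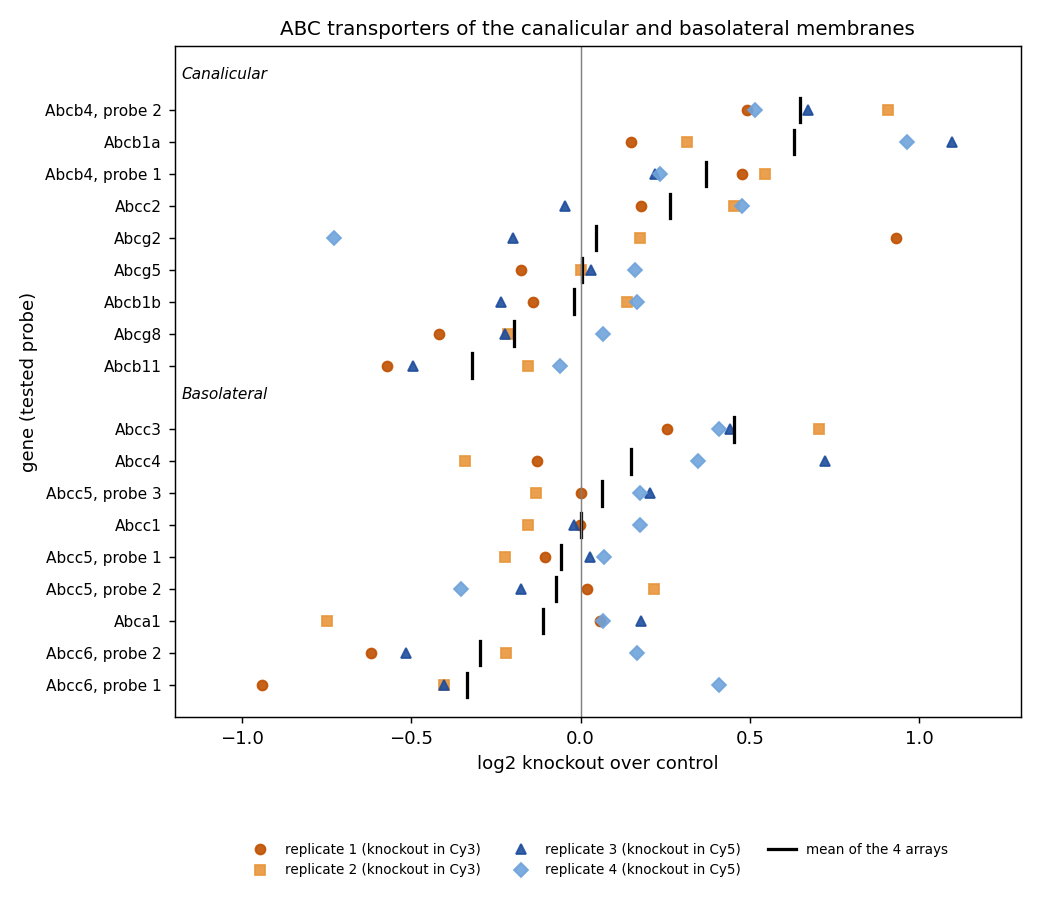
Log2 knockout over control (x axis) for the 18 tested probes of canalicular and basolateral ABC transporters (y axis), with 1 symbol per array, orange for arrays with the knockout in Cy3 and blue for Cy5, and a black bar at the mean of the 4 arrays. All 4 arrays lie above 0 for Abcb1a, both Abcb4 probes and Abcc3 and below 0 for Abcb11, while Abcg2 spreads from -0.73 to 0.93.

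Among basolateral members Abcc3 alone was under an adjusted p of 0.1. Abcc3 carries glucuronides and bile salts back to the blood. It gave 0.26, 0.71, 0.44 and 0.41, a mean of 0.45 ± 0.19 (SD, n = 4), or 1.37-fold, with an adjusted p of 0.0943 in limma. Its signals were 11787, 8819, 10894 and 8912 in the controls and 13729, 14228, 14995 and 11968 in the knockouts. Every knockout mouse was above every control mouse. The probe lies at chromosome 11, 94204612 to 94204671 on mm9, and its last 30 bases identify it.
Abcc3: tccactgatgaaataaagctgtagtcaaca

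Abcc4, which exports cyclic nucleotides and conjugated bile salts, was below 0 on the arrays with the knockout in Cy3 and above 0 on the others. It gave -0.13, -0.34, 0.72 and 0.35, a mean of 0.15 ± 0.48 (SD, n = 4), with an adjusted p of 0.369 in limma. Abcc1, a broad exporter of glutathione conjugates, gave 0.00, -0.16, -0.02 and 0.18, a mean of 0.00 ± 0.14 (SD, n = 4). Both means were smaller than their SD, and neither passed the test.

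Abcc5, an exporter of organic anions and nucleotides, had 3 tested probes. The first is printed in 10 spots on each array and gave -0.11, -0.22, 0.03 and 0.07, a mean of -0.06 ± 0.13 (SD, n = 4). The SD between its spots on 1 array was 0.054 to 0.074, less than the SD between arrays. The other tested Abcc5 probes had means of -0.07 and 0.06, so the 3 do not share a sign. These 2 probes were dim. The second was well above background in 3 control and 2 knockout mice, and the third in 2 control and 3 knockout mice.

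Abcc6, a liver transporter needed for the release of ATP that yields the mineralisation inhibitor pyrophosphate, was below 0 on replicates 1 to 3 and above 0 on replicate 4 with both probes. The first gave -0.94, -0.40, -0.40 and 0.41, a mean of -0.34 ± 0.56 (SD, n = 4), with an adjusted p of 0.323 in limma. The second gave -0.62, -0.22, -0.52 and 0.17, a mean of -0.30 ± 0.35 (SD, n = 4), with an adjusted p of 0.296 in limma. Both means were smaller than their SD.

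Abca1 loads cholesterol and phospholipid onto apolipoprotein A-I. It gave 0.06, -0.75, 0.18 and 0.07, a mean of -0.11 ± 0.43 (SD, n = 4), so 1 array set the sign of the mean. Without replicate 2 the fitted ratio was 0.09. Over the 9 basolateral probes 4 means were above 0, and the median was -0.06.

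In mitochondria, Abcb10 of the inner membrane, which takes part in haem synthesis, was lower in the knockout on all 4 arrays. It gave -0.70, -0.72, -0.15 and -0.12, a mean of -0.42 ± 0.33 (SD, n = 4), or 1.34-fold lower, with an adjusted p of 0.0534 in limma. The ratio differed between dye orientations, with a mean of -0.71 when the knockout carried Cy3 and -0.14 when it carried Cy5. Signals were 2263, 1909, 1373 and 1588 in controls and 1360, 1122, 1225 and 1426 in knockouts, which overlapped. Without the dye term the adjusted p was 0.225 in limma. The probe is at chromosome 8, 126476407 to 126476466 on mm9.
Abcb10: aattgaattgagtcatcacgttttctttct

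Abcb10 is abundant in erythroid cells. All 4 erythroid marker probes had means below 0, and their lowest adjusted p in limma was 0.138. Their summed signal was 44028 to 68418 in controls and 36157 to 56630 in knockouts. The median of these probes was -0.011, 0.14, -0.81 and -0.021 on replicates 1 to 4, and Alas2, the erythroid enzyme that opens haem synthesis, gave 0.36, -2.08, -2.28 and -2.25. In bulk tissue fewer cells of a type and less RNA per cell cannot be told apart, and the part of erythroid RNA in the Abcb10 value was not tested.

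Other mitochondrial members lay close to 0. Abcb6, a porphyrin transporter, had a mean of 0.06, and the Abcb8 probes had means of 0.04 and 0.03. Of the 6 mitochondrial probes, 3 had a mean above 0.

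In peroxisomes Abcd3, which imports branched fatty acids and bile acid precursors, gave -0.37, -0.51, -0.04 and 0.36, a mean of -0.14 ± 0.39 (SD, n = 4), with an adjusted p of 0.395 in limma. Among 16 probes of peroxisomal partners, such as the import and assembly factors of the Pex family, 12 had a mean above 0. Their median was 0.05, and 1, Pex5, was under an adjusted p of 0.1 in limma with a mean of 0.25. Among all tested probes 4.05% were higher under that limit.

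In lysosomes and endosomes the lowest values were those of Abca2, which handles sterols and sphingolipids and is best known from oligodendrocytes. The first Abca2 probe gave -0.34, -0.42, -0.65 and -0.56, a mean of -0.49 ± 0.14 (SD, n = 4), or 1.41-fold lower, with an adjusted p of 0.0523 in limma. The second gave -0.17, -0.33, -0.58 and -0.58, a mean of -0.42 ± 0.20 (SD, n = 4), or 1.33-fold lower, with an adjusted p of 0.0583 in limma. Both probes put every knockout mouse below every control mouse. The first ran from 746 to 900 in controls and from 469 to 577 in knockouts, and the second from 268 to 331 and from 184 to 235. The probes do not overlap on the chromosome, at 25303705 to 25303764 and 25302851 to 25302910 of chromosome 2 on mm9.
Abca2 first probe: agatgtcttttcatggacacccttgactgc
Abca2 second probe: cacagaggatgaaggcctcatcagcttcga

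Abcb9, a lysosomal peptide transporter, gave 0.55, 0.53, 0.48 and -0.04, a mean of 0.38 ± 0.28 (SD, n = 4), with an adjusted p of 0.131 in limma. Replicates 1 to 3 were thus alike and replicate 4 lay apart. Abca5 had 2 probes with means of 0.11 and 0.17. The signals of the second did not overlap, 13.6 to 31.8 in controls and 32.1 to 40.2 in knockouts, and its adjusted p was 0.217 in limma. That probe was dim, and it was well above background in 3 control mice and 4 knockout mice. Abca3, Abcg1 and Abcd4, which handle lamellar body lipid, cell sterols and cobalamin, had means of 0.15, 0.12 and -0.06. Over the 8 probes of this site 5 means were above 0, and the median was 0.11.

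Among members with other or unassigned sites, Abcc10, an exporter of lipophilic drugs, was lower on all 4 arrays. It gave -0.28, -0.17, -0.59 and -0.33, a mean of -0.34 ± 0.18 (SD, n = 4), or 1.27-fold lower, with an adjusted p of 0.0932 in limma. The signals did not overlap, from 622 to 778 in controls and from 467 to 556 in knockouts. The probe is at chromosome 17, 46440186 to 46440245 on mm9.
Abcc10: ttttcataattttatttgataaaattccta

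Abca7, a phospholipid transporter close to Abca1, was also below 0 on all 4 arrays, with a mean of -0.29 and an adjusted p of 0.109 in limma. Its signals did not overlap, from 804 to 1008 in controls and from 693 to 769 in knockouts. Abcg4, a sterol transporter best known from brain, had the lowest mean of all tested members, from -0.91, -0.88, 0.21 and -0.60, with a mean of -0.55 ± 0.52 (SD, n = 4) and an adjusted p of 0.136 in limma. Only 1 of its 3 probes was tested, and the others were well above background in no mouse. Abcc8 and Abcc9, the sulphonylurea receptors, had means of 0.02 and -0.18.

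The soluble members, which recycle ribosomes or act in translation, were at -0.03 for Abce1, -0.18 and -0.13 for Abcf1, 0.09 for Abcf2 and -0.19 for Abcf3. The first Abcf1 probe was above 0 with the knockout in Cy3, at 0.22 and 0.05, and below 0 with the knockout in Cy5, at -0.44 and -0.54. The lowest adjusted p of the 5 probes was 0.176 in limma.

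**Figure D2:**
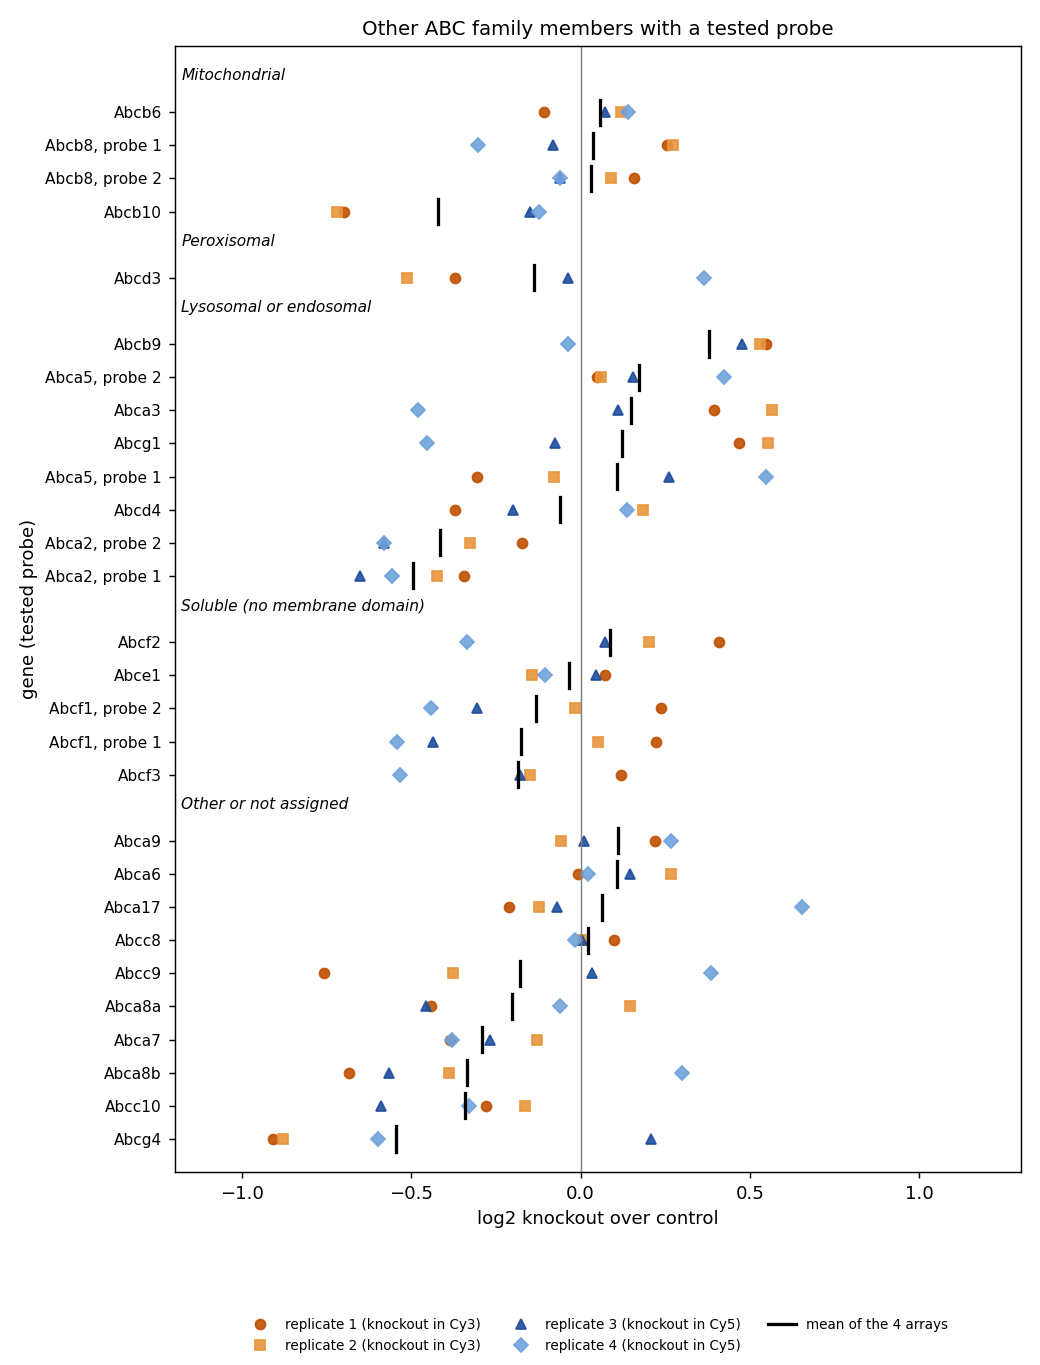
Log2 knockout over control (x axis) for 28 tested probes of other ABC members (y axis), grouped by site, with 1 symbol per array, orange for arrays with the knockout in Cy3 and blue for Cy5, and a black bar at the mean. Both Abca2 probes, Abcb10, Abca7 and Abcc10 lie below 0 on every array, and the second Abca5 probe lies above 0.

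Across all tested members, the processed signals of the 4 control and 4 knockout mice did not overlap for 8 of 49 probes, or 16.3%, against 8.92% of all tested probes. The knockout mice were above for 4 (Abcb1a, the second Abcb4 probe, Abcc3 and the dim second Abca5 probe). They were below for 4 (both Abca2 probes, Abca7 and Abcc10). The plot of signals by mouse shows 8 of the probes under 0.1.

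**Figure D3:**
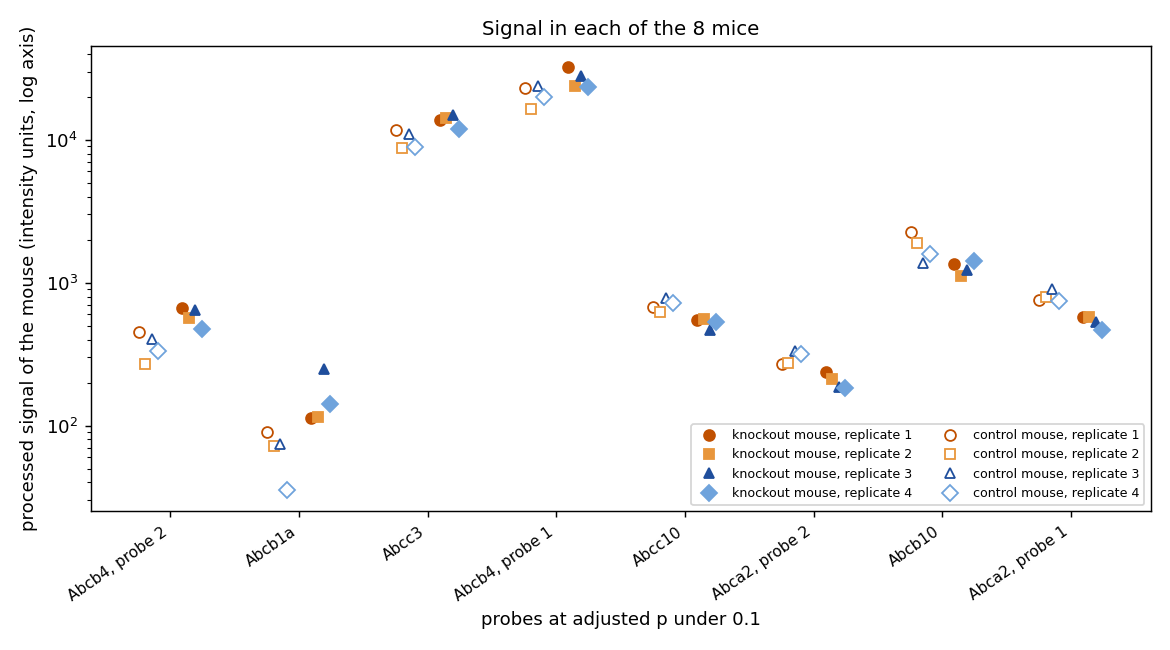
Processed signal in intensity units on a log axis (y axis) for 8 ABC probes under an adjusted p of 0.1 (x axis), with open symbols for control mice, filled symbols for knockout mice and 1 shape per array. For Abcb1a the 4 controls lie between 35.2 and 90.7 and the 4 knockouts between 114 and 251, while for Abcb10 the groups overlap.

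By subfamily, the A members had 6 of 12 tested probes above 0, the B members 7 of 12, the C members 6 of 12 and the G members 3 of 5. Their medians were -0.02, 0.03, -0.03 and 0.00. The F members had 1 of 4 above 0. In 7 of the 8 genes with several tested probes the probes had means of 1 sign. The exception was Abcc5, with the dim probes described above.

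Genes that adjoin did not always have like values. Abca8b, Abca8a, Abca9, Abca6 and Abca5 lie in a row on chromosome 11. Abca8b and Abca8a had means of -0.34 and -0.20, and Abca9 and Abca6 had 0.11 and 0.11. Abca17 and Abca3, neighbours on chromosome 17, had 0.06 and 0.15. Of the probes in this paragraph and of Abca5, the lowest adjusted p in limma was 0.217, for the second Abca5 probe.

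The 25 members' probes that were not tested include all probes of 10 genes, namely Abca4, Abca12, Abca13, Abca14, Abca15, Abca16, Abcb5, Abcc12, Abcd2 and Abcg3. Of the 25, 22 were well above background in no mouse of either genotype. Abca14, Abca15 and Abca16 also lie in a row, on chromosome 7. For these genes no ratio is given.

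Regulators of ABC genes were described from a list of 12 nuclear receptors and related factors, all 12 tested with 18 probes, of which 11 had a mean above 0. The median was 0.09, and 3 probes, all higher, were under an adjusted p of 0.1 in limma, against 4.05% of all tested probes. Nfe2l2, which encodes NRF2, was above 0 on all 4 arrays, from 0.26 to 1.09, with a mean of 0.74 and an adjusted p of 0.0523. Nr1h3, which encodes the sterol receptor LXR alpha, had means of 0.28 and 0.26 on its probes. Nr1h4, which encodes the bile acid receptor FXR and is known to drive Abcb11 and Abcb4, was above 0 on all 4 arrays, with a mean of 0.32 and an adjusted p of 0.148. Its target Nr0b2 had a mean of -0.27. Nr1i2 and Nr1i3, the drug sensors PXR and CAR, had no probe under 0.1. The Nr1i2 probe had a mean of 0.04, and the Nr1i3 probes disagreed, with means of 0.44 and -0.20. The higher Nr1i3 probe was above 0 on all 4 arrays, with an adjusted p of 0.172 in limma. Its signals did not overlap, from 4711 to 7354 in controls and from 7561 to 8845 in knockouts.

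Targets of these factors outside the family were mixed. Of 10 probes of NRF2 targets, 6 were above 0 and 2, Nqo1 at 0.67 and Srxn1 at 0.57, were under an adjusted p of 0.1 in limma. Among all tested probes 4.05% were higher under that limit. The other probes above 0 were both Gstm1 probes at 0.55 and 0.59, Ugdh at 0.31 and Txnrd1 at 0.095. Those below 0 were Gclc and Gclm, which make glutathione, at -0.32 and -0.14, and both Hmox1 probes at -0.24 and -0.047. The lowest adjusted p in limma of the probes in these 2 groups was 0.130, for Ugdh. Of 8 probes of LXR targets, 5 were above 0, and the 2 under 0.1 were those of Nr1h3 itself.

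Proteins that place or hold transporters at the canaliculus, such as Rab11a, Myo5b, Rdx and Atp8b1, gave 18 tested probes. Of these 10 were above 0, the median was 0.02, and the lowest adjusted p in limma was 0.102, for the manganese exporter Slc30a10. Genes of bile acid uptake and synthesis gave 12 probes, 9 of them below 0, with a median of -0.29. Under 0.1 were Slco1a1, a sinusoidal anion uptake carrier, at -1.0, Cyp27a1 at -0.42, and both probes of Slc27a5 at 0.35 and 0.39. Among all tested probes 4.05% were higher and 2.68% lower under that limit. The second Slc27a5 probe was negative on the replicates with the knockout in Cy3.

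Markers of other liver cells were read beside the transporters, since Abcc3 and Abcb1a are also made by bile duct cells. Of 6 cholangiocyte markers 5 had a mean above 0, and 2, Krt19 at 0.64 and Spp1 at 0.37, were under an adjusted p of 0.1 in limma. Among all tested probes 4.05% were higher under that limit. The summed signal of the cholangiocyte markers was 490 to 792 in controls and 758 to 959 in knockouts. The part of bile duct cells in the Abcc3 and Abcb1a values was not tested. Of 5 hepatocyte markers 2 had a mean above 0, with a median of -0.06, and 1 of the higher was under an adjusted p of 0.1 in limma. The summed signal of the hepatocyte markers was 349460 to 474801 in controls and 431750 to 521906 in knockouts. Medians were -0.06 for macrophage, -0.11 for endothelial and -0.07 for stellate markers. Pancreatic acinar markers had medians of 3.72, -2.09, -0.03 and -0.89 on replicates 1 to 4, so pancreatic transcripts differed between the liver samples, and their part in the ABC values was not tested.

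The 8 probes of that plot kept their sign in all 102 recomputed values over 13 alternative settings, which are not independent of each other. For most of these values the sign was fixed in advance. Settings that change only the model, the filter or the choice of probe return the main ratio. Each of these probes had the same sign on every array, so leaving an array out could not reverse it. Only settings that change background correction or normalization could have changed a sign. Abcb1a had the widest range, from 0.59 to 1.19. The plot of settings shows these values with those of the main setting.

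**Figure D4:**
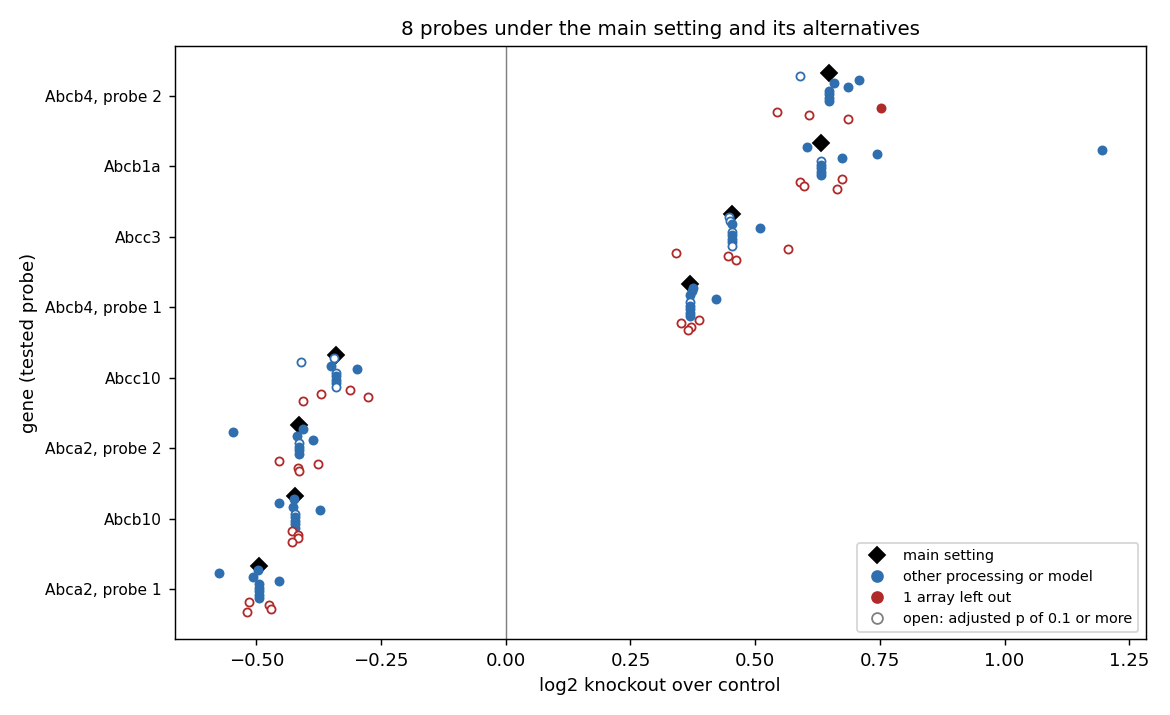
Log2 knockout over control (x axis) of 8 ABC probes under an adjusted p of 0.1 (y axis) under the main setting (black diamonds), under other processing or models (blue) and with 1 array left out (red), filled where the adjusted p is under 0.1 and open elsewhere. All values of a probe lie on 1 side of 0, and of the red points only 1, for the second Abcb4 probe without replicate 1, is filled.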

How the data were processed

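Arrays were scanned and read with Agilent Feature Extraction 10.7.3.1, per the file headers. Each deposited array file gives, by spot and dye, mean and local background intensity, a processed intensity (background-subtracted and dye-normalized) and a log10 ratio, with marks of the software. The log10 ratios deposited by the authors were not tested. The deposited value table holds log2 ratios that matched log2 knockout over control of the processed signals within 1e-04 for all 43020 values of each array, with its rows taken in the order of spots that are not controls. Probe positions are those of the files, on mm9. The members and lists were chosen with earlier results of these data known.

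Here limma 3.58.1 under R 4.3.3 corrected background with normexp (offset 50, which shrinks the ratios of dim probes). Its parameters were fitted without spots marked for non-uniform background or more than 20 units below local background, because the fit over all spots gave background means of -273 (Cy3) and -185 (Cy5) on replicate 1, against 4.44 to 5.76 and -15.7 to -12.4 elsewhere. Loess within arrays followed. Control spots and feature outliers (194 to 230 per array) were left out, and spots of a probe were averaged. The ratio of an array was the unit (n = 4), with a dye intercept, so standard errors leave out differences between dye orientations. P-values were two-sided, with Benjamini-Hochberg adjustment over 20818 probes. The fit was tested on simulated data. All 4 arrays shared 1 slide and 1 scan. Named with all array values were Ppp1r8, tested canalicular and basolateral members, members whose probes disagreed in sign, and others with 1 sign and a mean of at least 0.3 in size. Values of Abca5, Abca7, Abcb9, Abcd3, Abcf1, Abcg4 and Nfe2l2 were added after their values were seen. The separate channel model needed statmod 1.5.0. Reading used data.table, version 1.17.8, and plots used matplotlib 3.10.9. Promoter sequences are those of RefSeq. Values of some members are not reported here, though the counts include them.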

Additional observations from a re-analysis of the deposited data

Results flagged for a closer look

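In 3 of the 49 tested ABC probes, 1 array lay far from the other 3, with a gap above 0.829 of the whole range. Chance alone sets about 1 in 20 groups apart in this way. Abca1 was at -0.75 on replicate 2 against 0.06 to 0.18 on the others. Abca17, a neighbour of Abca3, was at 0.65 on replicate 4 against -0.21 to -0.07 on the others. Abcb9 was at -0.037 on replicate 4 against 0.48 to 0.55 on the others.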

How the results depend on the processing

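The count of ABC probes past an adjusted p of 0.05 was 0, and also 0 with normexp fitted on all spots, with processed signals, without the dye term, with 1 probe per gene and without any 1 array (0 to 0). It was 1 without background correction (0.677% of all tested probes), 3 with median centring (1.71%), 13 in the separate channel model (17.6%), 6 without the filter on dim probes (1.28%) and 2 with probes well above background in all mice (0.962%). The count under 0.1 was 9 (6.72% of all tested probes). It was 5 with normexp fitted on all spots (3.77%) and 2 without the dye term (1.72%). The separate channel model gave 15 (26.4%), and 1 probe per gene gave 5 (5.6%). With 1 probe per gene fewer probes stand for the family. Abcc10 and Abcc3 were still tested there, with an adjusted p in limma of 0.1002 and 0.1015. With 1 array left out the count under 0.1 ranged from 0 to 1 (0% to 1.06%). The cause of the other shifts was not tested. Of the 23 named probes, 18 kept their sign throughout and 5 did not. Settings that change only the model, the filter or the choice of probe return the main ratio, so they cannot change a sign. Values with 1 array left out are fitted ratios that weigh the dye orientations equally, not plain means of 3 arrays. Left out 1 array at a time, Abca1 ranged from -0.31 to 0.090 (positive without replicate 2), Abcb1b from -0.12 to 0.082 (positive without replicate 1 or 3), Abcc1 from -0.048 to 0.049 (negative without replicate 1 or 4), Abcg2 from -0.14 to 0.23 (negative without replicate 1 or 3) and Abcg5 from -0.040 to 0.049 (negative without replicate 2 or 4). Median centring put Abcb1b at 0.0020 and Abcc1 at -0.031, processed signals put Abcc1 at -0.042, and normexp on all spots put Abcg5 at -0.0047. The number of arrays limits the precision, and 25 ABC probes were left out by the filter on signal over background, 22 of them well above background in no mouse.

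Each ratio already pairs the knockout and control mouse of an array, so no further replicate block was fitted.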

Other observations

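ABC proteins whose symbols lie outside the name rule had means near 0. Tap1 and Tap2, which carry peptides to class I molecules, had mean log2 ratios of -0.03 ± 0.29 and -0.03 ± 0.37 (SD, n = 4). Single arrays ran from -0.22 to 0.41 for Tap1 and from -0.58 to 0.24 for Tap2. Cftr, the chloride channel of bile duct cells, had a mean of 0.01 ± 0.10 (SD, n = 4). The lowest adjusted p of these genes in limma was 0.902.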
